A study of Mus musculus with 2 samples.

Results

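Genes of the splicing machinery were compared between long-term haematopoietic stem cells (LT-HSCs) of wild-type mice and of mice lacking cia-cGAS, a circular RNA. The members were chosen by gene name, and the name families themselves were selected on their log2 differences between these arrays. They are the genes whose symbol in the array annotation begins with Snrp, Snrnp, Srsf, Sfrs, Sf3a, Sf3b, Lsm plus a digit, U2af, Prpf or Hnrnp. There were 92 such genes, on 208 rows of the array, of 24203 genes measured. They include 18 hnRNP genes, 13 genes of the U2 particle and its auxiliary factors, 13 Lsm genes and 10 SR genes. Both groups were C57BL/6 mice aged 8 weeks, and the cells were sorted from bone marrow. The groups differ by genotype alone in the labels, cia-cGAS WT against cia-cGAS knockout, and each is 1 single-colour NimbleGen array. The sources used here do not say how the deletion was made, which markers were sorted on, or whether RNA of several animals was combined. With 1 array per group there is no replicate check and no test, so every difference describes these 2 samples.

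Introns are removed from pre-mRNA by the spliceosome, which assembles anew on each intron from small nuclear ribonucleoprotein particles (snRNPs). U1 recognises the start of the intron and U2 its branch point, after which the U4/U6.U5 tri-snRNP joins and the complex becomes catalytic. SR proteins, which carry a domain of arginine and serine repeats, mostly favour the use of nearby exons, whereas many hnRNPs coat the transcript and can repress splice sites. Several of these genes, SF3B1, SRSF2 and U2AF1 among them, are recurrently mutated in human myelodysplastic syndromes.

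Values are log2 intensities, and differences are knockout minus wild type. A gene counted as detected on an array if it lay above a floor, which 95 percent of the 1008 rows for smell, pheromone and taste receptors did not exceed (9.12 for the wild type, 8.98 for the knockout). Of the 92 members, 81 were detected on both arrays, 3 on the knockout array alone and 8 on neither. The brightest row stood for each gene. Rows of the same gene read different parts or transcripts, and their differences had a pooled SD of 0.41 over the 42 members with at least 2 detected rows, against 0.37 over 2877 genes of the whole array. This SD is not a replicate error. On the same arrays, 12 of 17 LT-HSC markers were detected on at least 1 array, Kit and Ly6a on both, whereas Slamf1 and Procr were below both floors. Fewer cells of a type and less RNA per cell cannot be told apart in such bulk samples.

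Splicing factor genes were lower in the knockout as a group. Of the 84 members detected, 65 had a negative difference, which is 77.4%, against 51.5% of the 10828 genes detected. Their median difference was -0.39, a 1.31-fold lower level, against -0.02 for all detected genes. At least 2-fold lower were 11 members, or 13.1%, against 4.06% of all detected genes, and at least 1.5-fold lower were 30, or 35.7%, against 12.3%. None was 1.5-fold or 2-fold higher, against 11.6% and 5.53% of all detected genes. The name rule and this direction were chosen with earlier results of these data in view, so these shares describe the members and support nothing further. Over all 92 members, with no floor, the median was -0.38 and the same number, 11, was at least 2-fold lower. Some genes of these families fall outside the rule because the array carries an older symbol. Among them, Hnrnpll was more than 1.5-fold higher, with a difference of 0.66 (10.16 for wild type and 10.82 for knockout). Hnrnpdl differed by -0.29 and Sf3b6 by 0.03.

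**Figure D1:**
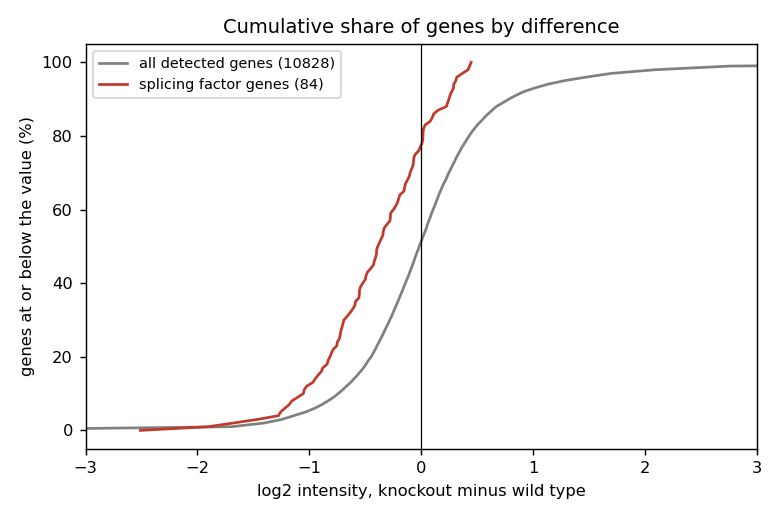
Cumulative share of genes (vertical axis, percent) by difference in log2 intensity, knockout minus wild type (horizontal axis), for 84 detected splicing factor genes and all 10828 detected genes. The curve of the splicing factor genes lies to the left, with its median at -0.39, and ends at 0.44, while that of all genes runs on to the right.

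The classes differed in their medians. Read from the brightest row of each gene, the U1 proteins were lowest, with a median of -1.17 over 3 genes, followed by the Sm core (-0.72, 7 genes), SR proteins (-0.71, 9 genes), proteins of the minor spliceosome (-0.69, 3 genes) and the tri-snRNP (-0.56, 8 genes). The hnRNPs (-0.41, 18 genes) and the U2 particle with U2AF (-0.24, 13 genes) were nearer to 0. Other Prp factors (-0.20, 6 genes), the unclassed genes, which are SR-related genes and a pseudogene (-0.12, 8 genes), and Lsm proteins (-0.10, 9 genes) lay closest to the median of all genes. This order depends on the row. With all rows of a gene averaged, also those below the floors, 78 members were detected. The U1 median was then -0.42, nearer to 0 than those of the minor spliceosome (-0.62), Sm core (-0.56), tri-snRNP (-0.52) and U2 (-0.47). With the row of smallest difference the U1 median was -0.28. The members of most classes spread over more than 1 log2 unit and the classes overlapped, so their order is a description only.

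**Figure D2:**
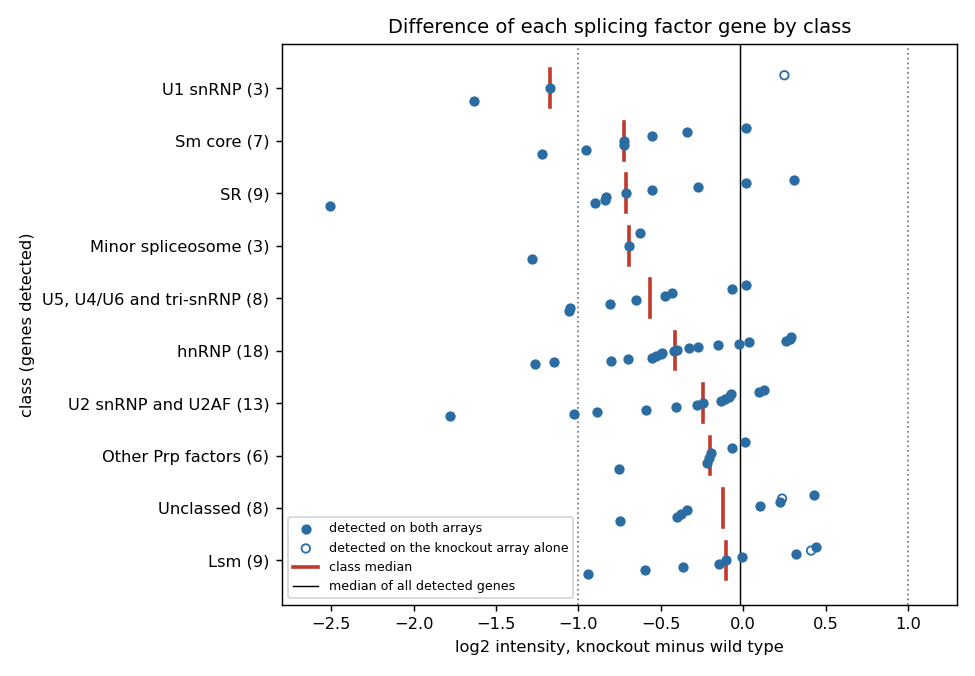
Difference of each detected splicing factor gene in log2 intensity, knockout minus wild type (horizontal axis), by class (vertical axis). Each point is a gene, open where detected on the knockout array alone, red bars are class medians, the solid line is the median of all detected genes and dotted lines mark a 2-fold difference. Points reach past 2-fold on the lower side only, down to -2.51 for Srsf10.

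The U1 particle carries Snrnp70 and Snrpa, which bind the U1 RNA, and Snrpc, which stabilises its pairing with the intron start. Snrnp70 read 13.87 (wild type) and 12.24 (knockout), a 3.10-fold lower level (gene ID 20637, MM9 chromosome 7 from 52631890 to 52650955). Its 3 rows did not agree, however. The second row, over nearly the same span, differed by -0.28. The third, a transcript from 52638709 to 52650185, was higher in the knockout by 0.65. Snrpa read 11.82 and 10.65 (2.25-fold lower), and its other row differed by -0.46. Snrpc passed the floor in the knockout alone, at 9.22 against 8.97, and its bound against the floor was at least 1.07-fold higher.

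The Sm proteins form the ring that holds the snRNAs of U1, U2, U4 and U5. Of 8 Sm genes measured, 7 were detected and 6 had a negative difference. Snrpd3 read 13.76 (wild type) and 12.54 (knockout), 2.33-fold lower (chromosome 10 from 74980840 to 74998208). Snrpf, at 15.28 and 14.32, fell just short of 2-fold with a difference of -0.96. Snrpg and Snrpd1 differed by -0.73 and -0.72, Snrpd2 by -0.55 and Snrpe by -0.34. The exception in the ring was Snrpb, which differed by 0.01 (10.09 and 10.10). Its near-identical relative Snrpn, an imprinted gene used mainly in brain, was below both floors at 7.30 and 7.38. All detected rows of Snrpg, Snrpd2 and Snrpe were lower.

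In the U2 particle the 2 snRNA-binding proteins lay apart. Snrpa1, the U2 A' protein, read 12.60 (wild type) and 10.82 (knockout), a 3.43-fold lower level from its only row (gene ID 68981, chromosome 7 from 73205454 to 73219470). Its partner Snrpb2, the U2 B'' protein, read 12.28 and 12.38. Among the SF3B subunits, which clamp the branch point, Sf3b3 was 2.03-fold lower (10.73 and 9.70), just past the threshold. Sf3b3 lost this call after loess centring (-0.99). It also lost the call with a higher floor and with rows averaged. In both of these settings its knockout value fell below the floor, so -0.60 and -0.69 are bounds against the floor and not measured differences. In contrast, Sf3b1 differed by 0.13 (12.85 and 12.98), Sf3b5 by -0.07, Sf3b4 by -0.09 and Sf3b2 by -0.24. All 3 SF3A genes had negative differences, from -0.89 for Sf3a3 to -0.14 for Sf3a2. U2AF binds the pyrimidine-rich end of the intron. Its small subunit U2af1 differed by -0.59 (12.09 and 11.50) and its large subunit U2af2 by -0.11 near the floor.

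The tri-snRNP brings the catalytic centre. The U4/U6 protein Prpf3 read 13.37 (wild type) and 12.31 (knockout) (2.08-fold lower), and its other detected row differed by -0.82. Prpf6, a scaffold between U5 and U4/U6, read 13.29 and 12.24 (2.07-fold lower). The helicase gene Snrnp200, which unwinds U4 from U6, differed by -0.65, Snrnp40 by -0.81, Prpf31 by -0.48 and Prpf8, the protein at the catalytic core, by -0.43. Prpf4 stood apart at 0.02 and Snrnp27 at -0.07. The minor spliceosome removes a small class of introns with its own U11 and U12 particles. All 3 of its members were lower, Snrnp35 by 2.43-fold (11.33 and 10.05, chromosome 5 from 124933163 to 124941131), and Snrnp48 and Snrnp25 with differences of -0.69 and -0.62.

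Other Prp genes and Lsm genes differed little. The U1-associated gene Prpf39 differed by -0.76 from its brightest row, its others by -0.05 and 0.19. Prpf19, Prpf18 and Prpf38b lay between -0.22 and -0.20, and the kinase gene Prpf4b was highest at 0.01. Lsm2 to Lsm8 form the ring on U6 RNA, and 6 of these 7 genes had a negative difference. Lsm2 was lowest (10.09 and 9.14, a difference of -0.94, with its knockout value near the floor), then Lsm3 at -0.59, and Lsm8 was highest at 0.32. Lsm14a, a protein of cytoplasmic RNA granules rather than of the spliceosome, had the largest positive difference of all members, 0.44 (12.82 and 13.27), and its 3 rows lay between 0.44 and 0.68. Lsm1, of the cytoplasmic decay ring, and Lsm10 and Lsm11, of the U7 particle that processes histone mRNA, were below both floors, as was Lsm12.

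**Figure D3:**
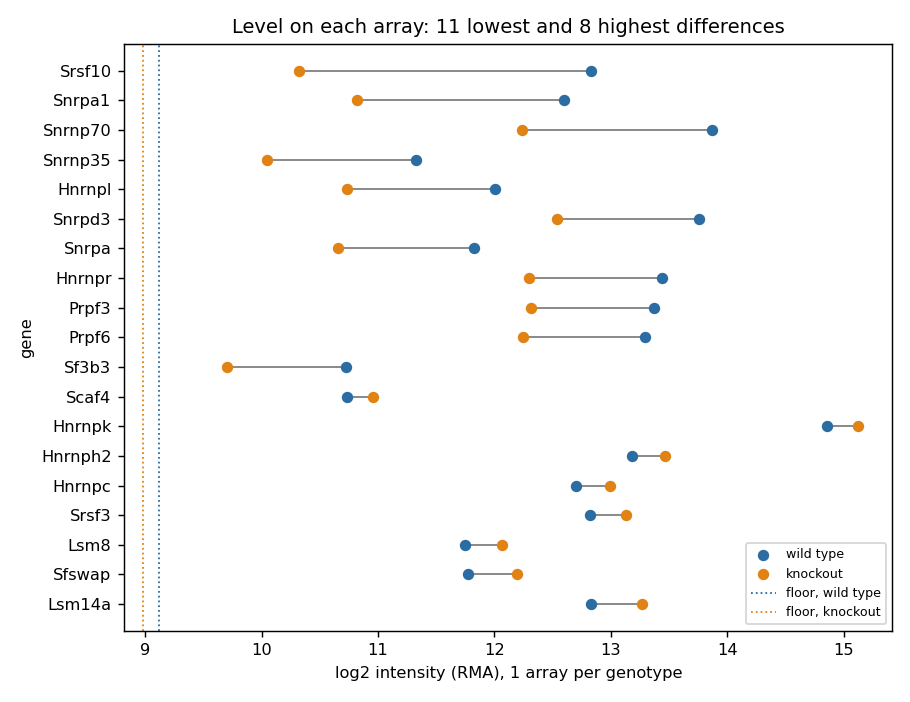
Log2 intensity (horizontal axis) of the 11 members at least 2-fold lower in the knockout and the 8 members with the highest differences among those detected on both arrays. Each row is a gene with its wild-type and knockout value, 1 array each, and dotted lines are the detection floors. Differences reach -2.51 for Srsf10 on the lower side and 0.44 for Lsm14a on the upper side.

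Of 10 SR genes, 9 were detected and 7 of these had a negative difference. Srsf10, a regulator of splicing in stress and in mitosis, had the largest difference of all members, reading 12.83 (wild type) and 10.32 (knockout) (gene ID 14105, chromosome 4 from 135412006 to 135414893). That 5.70-fold difference belongs to 1 of its 3 rows. A row spanning 135412086 to 135421746 differed by -0.59 (9.88 and 9.29), and a row of a transcript further downstream, from 135417688 to 135425814, by 0.09 (9.73 and 9.82). The rows thus read unlike differences along the gene. For Srsf11, on chromosome 3, the brightest row differed by -0.90 and its 4 other rows detected on both arrays by -0.17 to 0.01.

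More even among the SR genes was Srsf1, the founding member, with differences of -0.83 (13.78 and 12.95) and -0.56 in its 2 rows. Srsf9 differed by -0.84 and Srsf4 by -0.71, each from a single row. Srsf7 differed by -0.55, with 4 rows from -0.88 to -0.07, and Srsf5 by -0.28. Srsf6 stood at 0.01. Srsf3, the smallest SR protein, was the highest of the class at 0.31 (12.82 and 13.13), its rows lying between 0.01 and 0.50. Srsf2 was below both floors, at 8.03 and 8.15, so nothing can be said of its direction. The 8 SR-related genes once named Sfrs, such as Scaf11, Sfswap and Pnisr, did not share the lower level: of 7 detected, 3 had a negative and 4 a positive difference, from -0.40 for Scaf11 to 0.43 for Sfswap.

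All 18 hnRNP genes that the name rule found were detected on both arrays, 14 with a negative difference. Hnrnpl, which binds CA repeats and controls exons of Ptprc (CD45) in lymphocytes, had an intensity of 4099.8 in wild-type and 1706.6 in knockout cells, 2.40-fold lower (gene ID 15388, chromosome 7 from 29600117 to 29607261). Its second row differed by -1.02, which made Hnrnpl the sole member with several detected rows that was at least 2-fold lower in each. Hnrnpr read 13.44 and 12.29 (2.22-fold lower). Hnrnpa1, an exon-silencing factor, read 13.73 and 13.03, and all 5 rows detected on both arrays were lower, with differences of -0.93 to -0.27. The pseudogene row Hnrnpa1l2-ps, whose sequence resembles it, differed by -0.75, and the 2 cannot be taken as independent readings because they can share hybridisation.

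Within hnRNP families the members diverged. In the A/B family, Hnrnpa1 was lowest at -0.70, Hnrnpa2b1 and Hnrnpa0 differed by -0.42 and -0.33, and Hnrnpa3 by -0.02 with rows on both sides of 0. In the H/F family, Hnrnph3 differed by -0.80 and Hnrnph1 by -0.15, whereas Hnrnpf stood at 0.04 and Hnrnph2 at 0.29, the other row of Hnrnph2 reading 0.75. The 3 genes of the U family lay between -0.50 and -0.28 in their brightest rows. The other row of Hnrnpul1 read 0.30, however, and a row of Hnrnpu did not differ. Hnrnpk, a poly-C binding protein, was higher in all 5 rows, by 0.02 to 0.67, with 14.86 and 15.12 in the brightest. Hnrnpc, at 0.29 from its brightest row, had other rows down to -0.66, and Hnrnpm gave -0.53 and 0.36.

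Rows of the same gene agreed in direction for some members and not for others. Of the 42 members with at least 2 rows detected on both arrays, 20 were lower in every row, 6 were higher in every row (Hnrnph2, Hnrnpk, Lsm14a, Scaf4, Sfswap and Srsf3) and 15 had rows on both sides of 0, while 1 row of Hnrnpu read the same on both arrays. The same counts were not made over all genes, so they have no base rate beside them and describe the members only. Over single rows, 114 of 156 detected on both arrays, or 73.1%, were lower, against 52.4% of 13464 such rows of all genes, and 13, or 8.33%, were at least 2-fold lower, against 3.98%. Of the 11 members at least 2-fold lower, 6 rest on 1 row detected on both arrays. Of the other 5, 3 were lower in every row (Hnrnpl, Prpf3 and Snrpa), and Srsf10 and Snrnp70 were not.

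**Figure D4:**
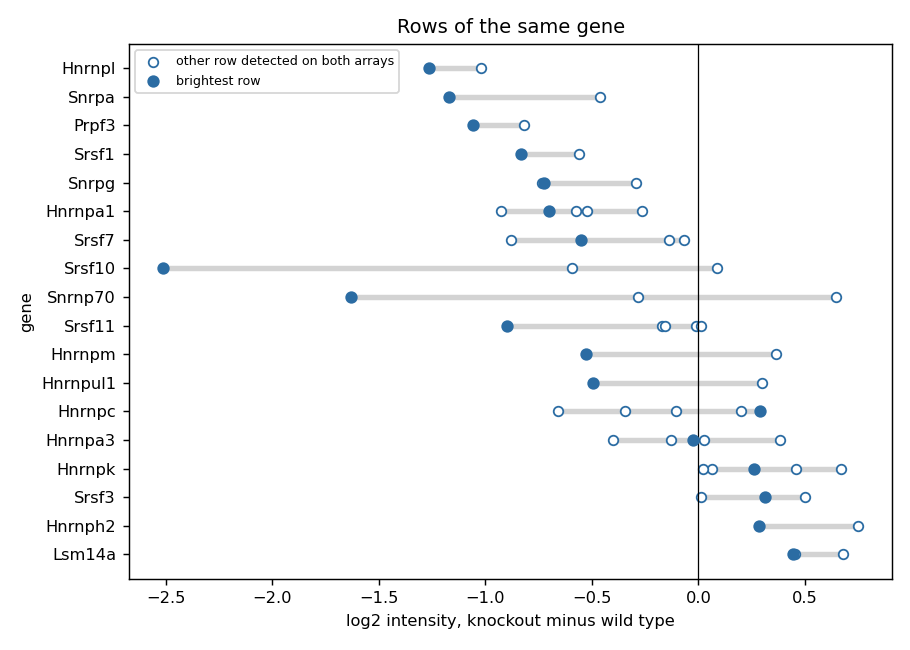
Differences in log2 intensity, knockout minus wild type (horizontal axis), of all rows detected on both arrays for 18 members with several such rows (vertical axis). Filled points are the brightest row of a gene, open points its other rows. Rows of Hnrnpl and Hnrnpk keep to 1 side of 0, while those of Srsf10 run from -2.51 to 0.09 and those of Snrnp70 from -1.63 to 0.65.

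RefSeq promoter windows (GRCm38.p6) were found for 78 of the 92 members, 104 windows in all, and the 250 bases before each start were read. Their median GC content was 59.2%, the same as in windows of all detected genes, and their median number of CpG pairs was 20 against 15. The windows of the 5 lowest members and of the highest member are shown over the 150 bases before the start. Capitals mark matches, on either strand, to the letters of 6 motifs: the CCAAT box (CCAAT), the GC box (GGGCGG), the ETS motif (CCGGAAG), the E-box (CACGTG), the TATA box (TATAAA) and the E2F motif (either TTTGGCGC or the form TTTCCCGC). The windows lie at chr4:135855921-135856070, plus strand for Srsf10, chr7:66060186-66060335, plus strand for Snrpa1, chr7:45395743-45395892, minus strand for Snrnp70, chr5:124483005-124483154, plus strand for Snrnp35, chr7:28810740-28810889, plus strand for Hnrnpl and chr7:34389706-34389855, minus strand for Lsm14a.
Srsf10: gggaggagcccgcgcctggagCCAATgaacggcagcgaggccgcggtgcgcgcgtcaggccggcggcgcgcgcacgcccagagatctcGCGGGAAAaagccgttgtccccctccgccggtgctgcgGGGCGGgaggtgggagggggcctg
Snrpa1: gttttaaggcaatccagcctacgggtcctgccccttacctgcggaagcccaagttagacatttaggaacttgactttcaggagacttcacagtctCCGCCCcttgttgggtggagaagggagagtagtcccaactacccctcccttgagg
Snrnp70: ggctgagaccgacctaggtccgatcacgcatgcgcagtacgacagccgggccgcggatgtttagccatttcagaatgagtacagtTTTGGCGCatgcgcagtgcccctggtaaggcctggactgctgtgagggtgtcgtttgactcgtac
Snrnp35: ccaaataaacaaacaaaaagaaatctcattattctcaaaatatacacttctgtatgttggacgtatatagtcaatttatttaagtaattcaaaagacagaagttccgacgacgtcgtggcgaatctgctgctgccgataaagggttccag
Hnrnpl: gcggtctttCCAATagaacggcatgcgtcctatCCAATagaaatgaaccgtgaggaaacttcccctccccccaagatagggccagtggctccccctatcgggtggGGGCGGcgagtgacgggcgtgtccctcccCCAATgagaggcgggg
Lsm14a: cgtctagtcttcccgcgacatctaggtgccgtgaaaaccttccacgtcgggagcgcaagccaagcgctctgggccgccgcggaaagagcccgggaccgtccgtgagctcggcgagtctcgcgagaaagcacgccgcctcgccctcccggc
Srsf10 holds a CCAAT box, an E2F match and a GC box, Snrpa1 a GC box, Snrnp70 an E2F match, and Hnrnpl 3 CCAAT boxes and a GC box. None of these letters occur in the stretches of the low member Snrnp35 and of the highest member, Lsm14a. Lsm14a is the only high member shown, so whether the matches divide low from high members was not tested.

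E2F letters occurred in 9 of 104 member windows (8.65%), against 2.24% of the 9800 windows of detected genes and 427 of all 32851 windows. In their brightest rows, the 7 genes that held them differed by -2.51 (Srsf10), -1.63 (Snrnp70), -1.15 (Hnrnpr), -0.83 (Srsf1), -0.59 (U2af1), -0.49 (Hnrnpul1) and 0.22 (Scaf4). Other rows of Srsf10 and Snrnp70 reached 0.09 and 0.65. Genes with the other motifs were not listed by difference, and whether any letters go with the differences was not tested. ETS letters occurred in 28 windows (26.9%, against 12.9% and 6.91%) and the GC box in 65 (62.5%, against 54.4% and 32.7%), each set against windows of detected genes and then all windows. The CCAAT box occurred in 42 (40.4%, against 35.0% and 33.8%), the E-box in 9 (8.65%, against 8.05% and 6.02%) and the TATA box in 8 (7.69%, against 7.92% and 12.4%). Letters of 2 longer motifs, counted but not marked in the windows shown, occurred in 1.92% of member windows against 1.41% of those of detected genes for NRF1, and in 0.962% against 2.96% for the interferon response element. A match is a stretch of letters and not a shown binding site.

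Other genes of RNA splicing, outside the name rule, were lower on balance. Their lists were chosen with earlier results of these data known, so they are no independent check on the members. The name families were selected on these differences, so a lower median of the members than of these lists is not a result. Over 5 lists with 93 genes measured and 87 detected, 62 had a negative difference (71.3%, against 51.5% of all detected genes) and the median was -0.21. At least 2-fold lower were 9 of the 87, and 0 were at least 2-fold higher, against 4.06% and 5.53% of all detected genes. Among other spliceosome proteins (median -0.29, 22 of 28 negative), the helicase gene Ddx42 was 2.73-fold lower (13.82 and 12.37), the tri-snRNP gene Sart1 2.62-fold and the U5 GTPase gene Eftud2 2.29-fold, and Ddx23, detected in the wild type alone, at least 2.23-fold lower. In the list of SMN and snRNP assembly genes (median -0.55, 8 of 10 negative, but 5 of the 10 detected in the wild type alone, and with these at their bounds a median of -0.42), Clns1a, the chaperone that hands Sm proteins to the assembly complex, was 3.40-fold lower (13.58 and 11.81), and Gemin6 was at least 2.11-fold lower. SR-related genes and SR kinases had a median of -0.15, with Pnn 2.34-fold and Luc7l 2.26-fold lower. The exon junction complex had a median of -0.14 and no gene past 2-fold. Other RNA-binding regulators had a median of -0.20, with Tia1 2.09-fold lower, but held 4 genes at least 1.5-fold higher: Ptbp3 (0.96), Rbfox2 (0.81), Celf2 (0.78) and Mbnl2 (0.69).

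Marker lists of other marrow cells and of DNA synthesis differed on the same arrays, and their part in the lower splicing factor levels was not tested. For reference, 51.5% of all detected genes had a negative difference, 4.06% were at least 2-fold lower and 5.53% at least 2-fold higher. Of 24 S phase genes, 22 were detected, 20 had a negative difference and 9 were at least 2-fold lower (median -0.75, or -0.61 with bounds, summed intensity 111039 for wild type and 64380 for knockout). Of 13 B lineage markers, 10 were detected, all lower, and 8 at least 2-fold (median -2.62, or -2.02 with the 4 genes detected in the wild type alone at their bounds, summed intensity 25474 and 5235). All 11 detected erythroid markers were lower, 5 of them at least 2-fold (median -0.88, summed intensity 136035 and 92337). Neutrophil markers had a median of 0.32, with 12 of 13 higher (summed intensity 202188 and 272007), and monocyte markers one of 0.53, with 7 of 11 higher and 4 lower (summed intensity 30079 and 56207). T and NK markers had a median of 0.25, or 0.08 with bounds, and LT-HSC markers one of 0.07 (summed intensity 38504 and 41259). The interferon-stimulated genes measured had a median of 3.28, or 2.87 with bounds, with 18 of 21 at least 2-fold higher (summed intensity 44608 and 339104).

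**Figure D5:**
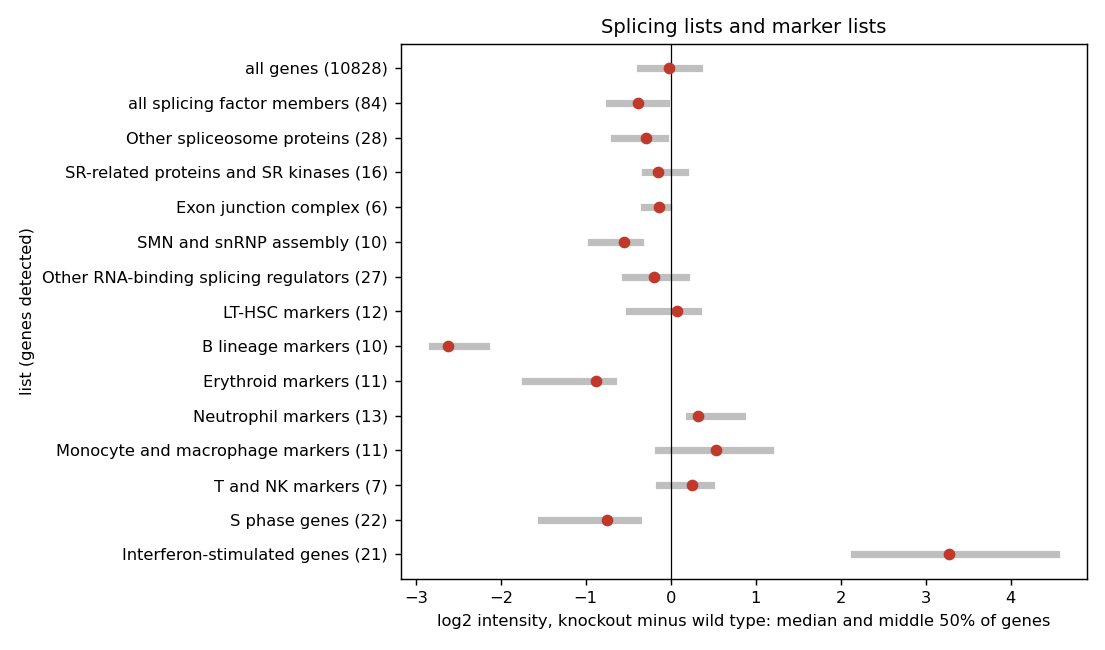
Median (red point) and middle 50% (grey bar) of the differences in log2 intensity, knockout minus wild type (horizontal axis), for all genes, the splicing factor members, the wider splicing lists and the marker lists (vertical axis, with the number of genes detected). Differences of genes detected on 1 array are drawn as measured, and all 5 wider splicing lists have medians below 0, from -0.55 to -0.14, between the B lineage list at -2.62 and the interferon list at 3.28.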

How the data were processed

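Total RNA of sorted LT-HSCs was hybridised to Cy3-labelled NimbleGen arrays, 1 per genotype. The authors deposited linear intensity values, summarised with RMA per the submitters' processing notes, with no version given. Per the file headers nearly all rows (44155 of 44170) combine 3 probes each. RMA equalises array distributions, so differences are relative to other genes. Transcripts are placed on MM9 per the file headers. The first base may count as 0 or 1.

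Intensities were put on the log2 scale without further normalization (Python 3.11.15, pandas 2.3.3). Symbols were updated by gene ID from RefSeq GRCm38.p6, which held 39057 of 41886 named rows. Of the members, 19 took a new symbol. Genes at or past 2-fold are called. A gene above the floor on 1 array gets a bound against the other array's floor. Code was tested on simulated data. Members, classes and lists were chosen with earlier results of these data known. Genes are named if past 2-fold, extreme in their class, preset (Sf3b1, U2af1, Srsf1, Srsf2, Srsf3, Hnrnpa1, Hnrnpk), or with rows on both sides of 0 by over 0.5, and genes of the wider lists if past 2-fold. All others, such as the rest of a complex and the 4 higher RNA-binding regulators, were chosen after their values were seen. Finer subgroups were also made then. One member is counted but not reported here by name. The number of arrays limits precision.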

Additional observations from a re-analysis of the deposited data

How the results depend on the processing

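In each of the 12 alternatives tried that gives these values, no member was at least 2-fold higher, and the median over all members stayed below 0, from -0.49 to -0.13. The count at least 2-fold lower, 11, became 30 at 1.5-fold, 3 at 3-fold, 6 with rows of a gene averaged (7.69%, against 2.75% of all genes) and 7 with the row of smallest difference (8.33%, against 2.98%), a setting chosen after seeing the data that shrinks differences by construction. The median over all members was -0.49 with the floor at the 99th percentile of receptor rows, -0.28 with rows averaged, -0.34 after loess centring (all genes 0.04) and -0.13 with the smallest row. With the 99th percentile floor, the U2 class stood at -0.41 and the unclassed genes at -0.36. With rows averaged, the medians were -0.41 for SR, -0.56 for Sm, -0.42 for U1, -0.47 for U2, -0.29 for hnRNP and 0.17 for the unclassed genes, which reversed. With the smallest row they were -0.020 for other Prp, -0.034 for SR, -0.29 for Sm, -0.28 for U1, -0.19 for hnRNP and 0.024 for the unclassed genes, again reversed. The mean in place of the median gave -0.85 for U1 and -0.41 for U2. Unclassed genes stood at -0.34 over members detected on both arrays and at -0.75 with updated symbols, which leave only the pseudogene there. With the smallest row Srsf10 reversed to 0.088. With rows averaged Snrnp70 was at -0.42, Prpf6 at -0.39 and Srsf10 at -1.01. The averages take in rows below the floors, and 78 members were detected by them. The other row of Prpf6 is such a row, below both floors at 5.58 (wild type) and 5.84 (knockout). Beyond construction, the cause was not tested. No paired analysis was possible because each group has 1 array. Members near the floor, such as U2af2 and Lsm2, are limited by signal over background.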

Other observations

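Members at least 2-fold lower were spread over 7 chromosomes, with 4 of the 11 on chromosome 7 (Snrpa, Snrpa1, Snrnp70 and Hnrnpl). Chromosome 7 held 11 detected members, the most of any chromosome, with a median difference of -0.49 against -0.06 for all of its detected genes. The share of all its detected genes at least 2-fold lower was not counted, so the 4 have no base rate beside them.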
